A study of Mus musculus with 2 samples.

Results

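Bone morphogenetic proteins (BMPs) and growth and differentiation factors (GDFs) are secreted dimers of the TGF-beta superfamily. They are made as long precursors, cut by proprotein convertases, and bind pairs of type I and type II serine/threonine kinase receptors, which phosphorylate SMAD1, SMAD5 and SMAD9 and switch on targets such as the *Id* genes. In bone, *Bmp2* is required for fracture repair that starts in the periosteum, the fibrous and cambial sheath of the bone surface, while *Bmp3* and *Gdf10* (BMP3B) form a divergent branch of the family that does not act as a classical osteogenic signal.

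The levels of 10 such ligands, *Bmp2*, *Bmp3*, *Bmp4*, *Bmp5*, *Bmp6*, *Bmp7*, *Bmp8a*, *Gdf5*, *Gdf6* and *Gdf10*, were read in periosteal cells. They were chosen by name, are 10 of the 31253 genes listed in the deposited matrices, and all 10 were present in both. The mice were 8 weeks old, and cells of the femoral and tibial periosteum were sorted as Prrx1-Ai9+, that is, as cells in which a Cre recombinase driven by the *Prrx1* promoter of limb mesenchyme had switched on the red Ai9 reporter. The control library came from Prx1 Cre; Ai9/+ mice and the other library from Prx1 Cre; Ai9/+; Piezo1 fl/fl mice, so both share the Cre and the reporter, and they differ in the floxed allele of *Piezo1*, a stretch-activated ion channel. There was 1 library per genotype and no replicate, so no test was made, a difference in genotype cannot be told apart from a difference between preparations, and every interval covers counting error only.

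After filtering, the control library held 4418 cells and the Piezo1 fl/fl library 5084, of 6118 and 7469 barcodes, and 50 barcodes occurred in both libraries. The median depth per barcode was 3633.5 and 3327 unique molecular identifiers (UMIs), where 1 UMI stands for 1 captured mRNA molecule. Levels are given as CPM, the UMIs of a gene per 1000000 UMIs of the group. *Piezo1* itself had 132 control UMIs and 69 in the Piezo1 fl/fl library, or 5.18 and 2.41 CPM, a ratio of 0.466 (95% interval 0.343 to 0.628). Which exons are floxed is not given in the sources used here, and UMIs at the 3' end may lie outside them, so that this ratio does not check the label. *Prrx1* was highest in SSPC-1-like cells, at 1800 and 1273 CPM, and lowest among the groups found in both libraries at 53.1 and 48.9 CPM in endothelial-like cells of the control and macrophage-like cells of the Piezo1 fl/fl library. Both sorted libraries thus held cells with low *Prrx1* mRNA and defining markers of blood or endothelium.

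Cells were clustered in each library alone, with the 10 ligands and the other genes of their pathway left out, and clusters were named from marker genes. The study defines 2 skeletal stem/progenitor populations, SSPC-1 and SSPC-2, and the same names with the ending "-like" mark clusters that carried most markers of a hand-written list here. *Angptl7*, which the study uses to mark SSPC-1, was not on that list. It stood at 3316 and 2509 CPM in SSPC-1-like cells and was higher still in tendon-like cells, at 10359 and 3645 CPM, so that SSPC-1-like cells need not match the population of the study. The groups found in both libraries numbered 8. SSPC-1-like cells (808 and 902 cells) were led by genes such as *Chad*, *Fgf18* and *Cilp2*, and SSPC-2-like cells (806 and 537) by *Mmp13*, *Tnn* and the osteocalcin gene *Bglap*. Cells high in *Dpt* and *Cd34* (1569 and 2076) joined the *Inmt* and *Pi16* fibroblast-like clusters with others high in both genes, tendon-like cells (263 and 393) were led by *Kera* and *Tnmd*, and mural-like cells (296 and 363) by *Myh11* and *Acta2*. Endothelial-like (172 and 141), lining-like (55 and 124, led by *Prg4* and *Htra4*) and macrophage-like cells (396 and 291) made up the rest. Perineurial-like cells (33) and a cycling, *Top2a*-led cluster (20) were resolved in the control alone, and chondrocyte-like (27), *Hba-a1*-led (142) and other blood-like cells (88) in the Piezo1 fl/fl library alone.

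**Figure D1:**
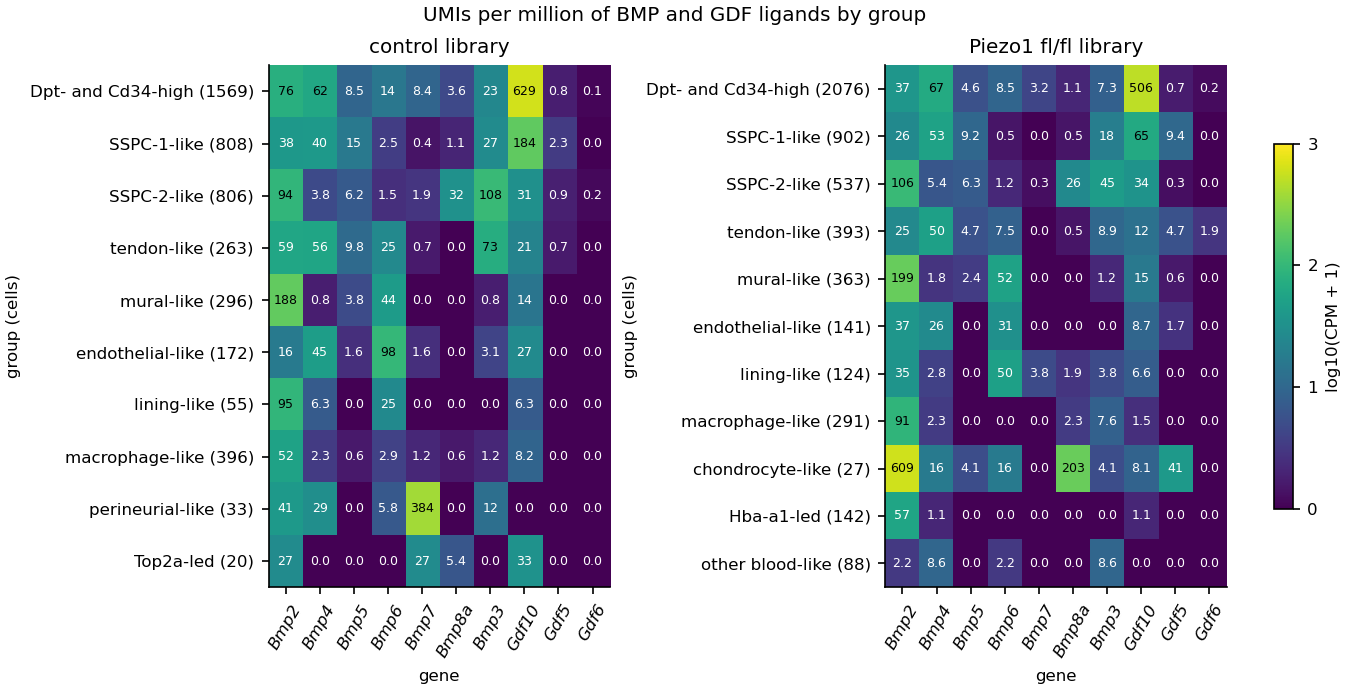
CPM of each ligand (columns) in each group of cells (rows, with the number of cells) for the control and the Piezo1 fl/fl library; the colour is log10(CPM + 1) and the printed number the CPM. *Gdf10* stood at 629 and 506 CPM in cells high in *Dpt* and *Cd34*, *Bmp2* at 188 and 199 CPM in mural-like cells, and *Bmp7* at 384 CPM in perineurial-like cells of the control.

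Over the 8 groups found in both libraries, 8 ligands had at least 10 UMIs in their highest group of each library, and 7 of these were highest in the same group in both. *Gdf10* and *Bmp4* were highest in cells high in *Dpt* and *Cd34*, *Bmp2* in mural-like cells, *Bmp3* and *Bmp8a* in SSPC-2-like cells, and *Bmp5* and *Gdf5* in SSPC-1-like cells, while *Bmp6* was highest in endothelial-like cells of the control and in mural-like cells of the Piezo1 fl/fl library. Of all genes with as many UMIs, 64.1% were highest in the same group in both libraries. In the control, 5 of 9 ligands with at least 10 UMIs in their highest group were at least 2 times higher there than in the next group, against 27.0% of all such genes. These 5 were *Bmp6*, *Bmp7*, *Bmp8a*, *Gdf5* and *Gdf10*, and *Bmp2* lay just under the limit at 1.99 times (1.44 to 2.80). *Gdf5* passed at 2.72 times (0.871 to 9.98), from 11 and 5 UMIs. *Bmp8a* passed at 5.89 times (1.04 to 234), against 1 UMI in the *Top2a*-led cluster. In the Piezo1 fl/fl library, 5 of 8 ligands passed (*Bmp2*, *Bmp3*, *Bmp8a*, *Gdf5* and *Gdf10*), against 22.3% of all such genes.

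*Gdf10* (ENSMUSG00000021943, GRCm38 chr14:33923587-33937983, plus strand) was the ligand with most UMIs in both libraries, 6746 and 6921. In cells high in *Dpt* and *Cd34* it stood at 629 CPM (613 to 646) in the control and 506 CPM (494 to 518) in the Piezo1 fl/fl library. The next group was SSPC-1-like cells, at 184 CPM (172 to 196) and 65.2 CPM (57.7 to 73.5). The gap between these groups was therefore 3.43-fold (3.19 to 3.68) in the control and 7.76-fold (6.87 to 8.79) in the Piezo1 fl/fl library. With every cell thinned to 2500 UMIs, 35.6% of control cells high in *Dpt* and *Cd34* had a *Gdf10* UMI (43.6% unthinned), against 2.33% of macrophage-like cells (3.28% unthinned), a type that should lack it.

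Within the cells high in *Dpt* and *Cd34*, *Gdf10* was far from even. The control had 2 clusters there. The *Inmt* fibroblast-like cluster (796 cells, led by *Sfrp1* and *Inmt*) had 1130 CPM (1099 to 1161), and the *Pi16* fibroblast-like cluster (773 cells) had 132 CPM (122 to 144). Of the 592 *Gdf10* UMIs of the latter, 129 came from 1 cell. At the clustering resolution of 0.8, a cell with 129 *Gdf10* UMIs lay among 19 chondrocyte-like cells of the control. The part of such cells in the levels of the *Pi16* fibroblast-like cluster was not tested. The Piezo1 fl/fl library had 5 clusters. Its *Inmt* fibroblast-like cluster (229 cells, led by *Fmo2* and *Hhip*) had 3128 CPM (3039 to 3219), and 94.8% of its cells had a *Gdf10* UMI at equal depth, against 56.4% in the control cluster of that name. The *Ccl11*-led cluster (880 cells) had 264 CPM, the *Slurp1*-led cluster (361) 109 CPM, the *Chl1*-led cluster (317) 70.5 CPM and the *Pi16* fibroblast-like cluster (289) 35.3 CPM. *Gdf10* was thus concentrated in a small cluster of the Piezo1 fl/fl library and spread over a larger and lower one in the control. The *Inmt* fibroblast-like cluster carried 7 of 7 markers of its list in the control but 3 of 7 in the Piezo1 fl/fl library. *Sfrp1* and *Ccl11*, leading genes of the control cluster, were leading genes of the *Ccl11*-led cluster there. The *Inmt* fibroblast-like clusters thus need not hold the same cells. They have different leading genes and sizes in the libraries, 50.7% and 11.0% of cells high in *Dpt* and *Cd34*, and were not compared further. *Gdf10* is itself among the 10 leading genes of both, although it was left out of the clustering.

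**Figure D2:**
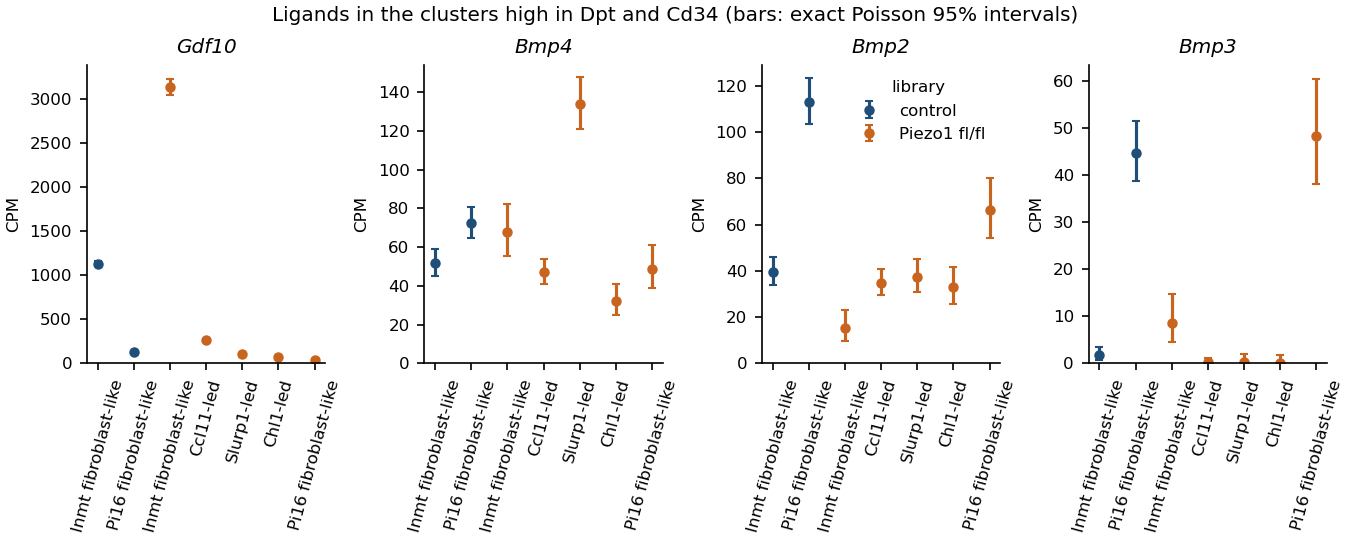
CPM of 4 ligands in the clusters high in *Dpt* and *Cd34*, 2 of the control (blue) and 5 of the Piezo1 fl/fl library (orange); points are the summed level of a cluster and bars exact Poisson 95% intervals. *Gdf10* reaches 3128 CPM in the *Inmt* fibroblast-like cluster of the Piezo1 fl/fl library, *Bmp4* is highest in the *Slurp1*-led cluster, and *Bmp3* is almost limited to the *Pi16* fibroblast-like cluster of each library.

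The promoter of *Gdf10* is shown because the gene had more UMIs than any other ligand, and that of *Bmp8a* because its UMIs lay mainly in cells rich in osteoblast transcripts. Both are the 250 bases before the RefSeq start on GRCm38.p6, written 5′ to 3′ on the gene's strand, and capitals mark the GC box GGGCGG on either strand, with overlapping matches run together. RefSeq promoters were found for 5 of the 10 ligands (*Bmp4*, *Bmp5*, *Bmp6*, *Bmp8a* and *Gdf10*).
*Gdf10*: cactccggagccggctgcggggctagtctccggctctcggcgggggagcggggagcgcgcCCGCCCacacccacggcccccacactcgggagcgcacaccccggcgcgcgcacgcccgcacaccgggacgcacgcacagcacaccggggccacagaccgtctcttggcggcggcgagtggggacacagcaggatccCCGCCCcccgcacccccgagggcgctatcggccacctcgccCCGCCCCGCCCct
*Bmp8a*: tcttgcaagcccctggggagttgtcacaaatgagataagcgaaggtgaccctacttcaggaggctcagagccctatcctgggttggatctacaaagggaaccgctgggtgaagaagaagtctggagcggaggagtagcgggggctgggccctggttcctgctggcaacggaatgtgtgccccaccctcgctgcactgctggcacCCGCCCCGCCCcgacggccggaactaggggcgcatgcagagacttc
The first lies at chr14:33923337-33923586 (plus strand) and the second at chr4:123343253-123343502 (minus strand). The *Gdf10* promoter held 35 CpG dinucleotides and 4 GC boxes, and the *Bmp8a* promoter 12 CpG and 2 GC boxes. The median over 32851 mouse promoters of this length was 6 CpG, and 32.7% held a GC box. The RUNX core TGTGGT, also searched on both strands, was in none of the 5 ligand promoters and in 14.05% of all promoters. These are matches of letters in a short window and no binding was measured.

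*Bmp2* (ENSMUSG00000027358, chr2:133552159-133562885, plus strand), an osteogenic ligand, had UMIs in all 8 groups of both libraries. In mural-like cells it stood at 188 CPM (165 to 213) in the control and 199 CPM (178 to 222) in the Piezo1 fl/fl library. In SSPC-2-like cells it stood at 94.1 CPM (86.4 to 102) and 106 CPM (95.1 to 118). The values in these 2 groups were close between the libraries, with log2 ratios of Piezo1 fl/fl over control of 0.09 (-0.16 to 0.33) and 0.17 (-0.03 to 0.37). At equal depth, 28.2% and 31.6% of mural-like cells had a *Bmp2* UMI, and the lowest share among the 8 groups of the control was 3.39%, in endothelial-like cells. In the control the neighbours below mural-like cells, lining-like and SSPC-2-like cells, could not be ordered (ratio 1.01, 0.725 to 1.36).

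Elsewhere the libraries differed more in *Bmp2*. In cells high in *Dpt* and *Cd34* it had 76.4 CPM (70.8 to 82.4) in the control and 36.8 CPM (33.5 to 40.2) in the Piezo1 fl/fl library. In tendon-like cells it had 59.1 and 24.9 CPM, and in lining-like cells 94.6 and 35.1 CPM, from 45 and 37 UMIs. The mural marker *Rgs5* stood at 1227 CPM in lining-like cells of the control and at 226 CPM in those of the Piezo1 fl/fl library, and its part in that difference was not tested. Macrophage-like cells went the other way, with 52.2 CPM (41.9 to 64.3) and 90.9 CPM (75.3 to 109). Their makeup differed, since *Cd74* had 10495 and 3341 CPM and *Lyve1* 2005 and 3800 CPM in them, while the *Hba-a1*-led cells of the Piezo1 fl/fl library had 13022 CPM of *Cd74* and 57.4 CPM of *Bmp2*. The *Pi16* fibroblast-like cluster, which had the most *Bmp2* among fibroblasts (113 and 66.3 CPM), made up 49.3% of the control cells high in *Dpt* and *Cd34* and 13.9% of those of the Piezo1 fl/fl library. The part of that shift in the lower level of the whole group was not tested, and within the *Pi16* fibroblast-like cluster the log2 ratio was -0.77 (-1.08 to -0.47). *Sema3e* and *Anxa8*, which led the control cluster, were leading genes of the *Slurp1*-led cluster in the Piezo1 fl/fl library. The *Pi16* fibroblast-like clusters of the libraries thus need not hold the same cells. The cell with most *Bmp2* in the control cluster of that name had 24 UMIs. A cell with 24 also lay among 19 chondrocyte-like cells of the control at resolution 0.8, which held 77 in all. The part of those cells in this ratio was not tested.

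Chondrocyte-like cells had the highest *Bmp2* level measured. The 27 cells of the Piezo1 fl/fl library (led by *Col2a1*, *Cytl1* and *Col10a1*) held 150 UMIs, 609 CPM (515 to 714), of which 44 came from 1 cell. Without that cell the level was 430 CPM. At the finer clustering resolution of 0.8 a cluster of 19 chondrocyte-like cells also stood out in the control, with 77 UMIs and 375 CPM (296 to 469), of which 24 UMIs came from 1 cell. These small clusters therefore had *Bmp2* above mural-like cells in both libraries.

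*Bmp4* (ENSMUSG00000021835, chr14:46383520-46390669, minus strand), which signals through the same receptors as *Bmp2*, was highest in the fibroblast, tendon and SSPC-1-like populations and low in SSPC-2-like cells. In cells high in *Dpt* and *Cd34* it had 62.1 CPM (57.0 to 67.5) in the control and 67.0 CPM (62.6 to 71.7) in the Piezo1 fl/fl library. Tendon-like cells had 56.5 CPM (45.2 to 69.7) and 49.9 CPM (40.8 to 60.3), and SSPC-1-like cells 39.7 CPM (34.3 to 45.9) and 52.7 CPM (45.9 to 60.1). In the control the 4 highest groups, these and endothelial-like cells at 45.3 CPM, did not differ from their neighbours in the order beyond counting error. The highest and lowest of these 4, cells high in *Dpt* and *Cd34* and SSPC-1-like cells, had intervals that did not overlap. SSPC-2-like cells had only 3.76 and 5.4 CPM, and mural-like cells, where *Bmp2* was high, 0.767 and 1.83 CPM from 1 and 3 UMIs. Among fibroblasts, the *Slurp1*-led cluster of the Piezo1 fl/fl library was highest at 134 CPM (121 to 148), and the other clusters of both libraries lay between 32.4 and 72.3 CPM. In none of the 5 groups with at least 10 UMIs did *Bmp4* differ 2-fold between the libraries (log2 ratios -0.79 to 0.52). The antisense genes *Gm15217* and *Gm15222* overlap *Bmp4* and had 5 to 16 UMIs in a library, and whether counting used strand is not given in the sources used here.

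*Bmp6* (ENSMUSG00000039004, chr13:38345107-38500302, plus strand), known as an endothelial ligand that controls hepcidin in the liver, had its highest levels among the 8 groups in endothelial-like, mural-like and lining-like cells. Endothelial-like cells had 98.3 CPM (75.6 to 126) in the control and 31.4 CPM (18.6 to 49.5) in the Piezo1 fl/fl library, from 63 and 18 UMIs. Mural-like cells had 43.7 CPM (33.1 to 56.6) and 51.8 CPM (41.4 to 64.1), and lining-like cells 25.2 CPM (13.0 to 44.1) and 50.3 CPM (37.7 to 65.8). The order of these 3 groups thus differed between the libraries, and in the Piezo1 fl/fl library mural-like and lining-like cells could not be ordered (1.03, 0.723 to 1.48). Tendon-like cells of the control, at 24.9 CPM, could not be told from lining-like cells (ratio 1.01, 0.481 to 1.98). The *Pi16* fibroblast-like cluster had 26.8 CPM in the control, from 120 UMIs, and 34.1 CPM in the Piezo1 fl/fl library, from 55 UMIs. SSPC-2-like cells had 1.54 and 1.20 CPM. The mural marker *Rgs5* stood at 1274 CPM in endothelial-like cells of the control and at 3292 CPM in those of the Piezo1 fl/fl library, where *Bmp2* was also higher (15.6 and 36.6 CPM). The part of mural RNA in the lower *Bmp6* there was not tested. *Txndc5*, which overlaps *Bmp6* on the other strand, had 12.5 CPM in endothelial-like and 125 CPM in SSPC-2-like cells of the control, the reverse of *Bmp6*. In lining-like cells, where *Bmp6* was also among its highest, *Txndc5* was at its highest, with 248 and 351 CPM. Control tendon-like cells had 152 CPM of it. Whether reads of *Txndc5* entered the *Bmp6* counts was not tested.

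*Bmp5* (ENSMUSG00000032179, chr9:75775364-75900310, plus strand), an early skeletal ligand, was sparse, with 207 and 133 UMIs in all. SSPC-1-like cells had 15.4 CPM (12.1 to 19.4) in the control and 9.18 CPM (6.50 to 12.6) in the Piezo1 fl/fl library. In neither library did this differ from the next group beyond counting error (1.57, 0.891 to 2.94, and 1.46, 0.834 to 2.61). Among control fibroblasts the *Inmt* fibroblast-like cluster had 14.2 CPM and the *Pi16* fibroblast-like cluster 2.91 CPM, the reverse of *Bmp2*.

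*Bmp7* (ENSMUSG00000008999, chr2:172868012-172940321, minus strand), which is needed for kidney and eye development, was highest in cells with markers of the perineurium, the sheath of nerve bundles. The 33 perineurial-like cells of the control, led by *Gatm*, *Slc2a1* and *Abcb1a*, held 66 of its 163 UMIs, which is 384 CPM (297 to 488). At equal depth 46.7% of these cells had a UMI (28.3 to 65.7), and the cell with most held 11 UMIs. The next group, the *Top2a*-led cluster of 20 cells, had 27.2 CPM from 5 UMIs (ratio 14.1, 5.76 to 45.0). Cells high in *Dpt* and *Cd34* came after it, with 8.42 CPM (6.62 to 10.6). No perineurial-like cluster was resolved in the Piezo1 fl/fl library, where *Bmp7* had 46 UMIs in 20 cells and 20 of the UMIs came from 1 cell. There, 5 cells carried UMIs of both perineurial markers *Slc2a1* and *Cldn1* and none of *Bmp7*, which allows up to 178 CPM. In the control, 33 cells carried both, with 53 *Bmp7* UMIs (292 CPM), and these need not be the 33 cells of the cluster. With each cell typed alone from its own markers, *Bmp7* was highest in perineurial-like cells of both libraries. Its level there was 73.2 CPM from 75 UMIs in the control and 12.7 CPM from 28 UMIs in the Piezo1 fl/fl library. A cluster of 19 chondrocyte-like cells, resolved in the control at the clustering resolution of 0.8, had 78.0 CPM (44.6 to 127). All cells that did not carry UMIs of both *Slc2a1* and *Cldn1* had 4.35 CPM (3.57 to 5.24) in the control and 1.61 CPM (1.18 to 2.15) in the Piezo1 fl/fl library. In cells high in *Dpt* and *Cd34* the level was 3.21 CPM in the Piezo1 fl/fl library, a log2 ratio of -1.39 (-1.98 to -0.82). Of the 41 UMIs behind that level, 20 came from the 1 cell named above, and without it the level was 1.64 CPM.

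*Bmp3* (ENSMUSG00000029335, chr5:98854415-98884396, plus strand), whose loss is known to raise bone density in mice, and *Bmp8a* (ENSMUSG00000032726, chr4:123312645-123343252, minus strand) shared SSPC-2-like cells as their main source among the 8 groups. *Bmp3* had 108 CPM (99.7 to 117) there in the control and 44.7 CPM (37.8 to 52.5) in the Piezo1 fl/fl library. *Bmp8a* had 32.0 CPM (27.6 to 36.9) and 25.8 CPM (20.6 to 31.9). Only 9.06% and 5.03% of SSPC-2-like cells had any *Bmp3* UMI and 7.94% and 5.77% any *Bmp8a* UMI, with up to 47 and 28 *Bmp3* UMIs in 1 cell. The level of the group thus came from a few cells with many UMIs.

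These cells were the ones richest in osteoblast transcripts. SSPC-2-like cells were ordered by the share of UMIs from 7 mature osteoblast markers (*Dmp1*, *Ibsp*, *Bglap*, *Bglap2*, *Ifitm5*, *Phex* and *Col22a1*) and cut into quartiles, numbered 1 to 4, at the values of the control. In the control, *Bmp3* had 0, 5 and 2 UMIs in quartiles 1 to 3 and 624 in quartile 4, 414 CPM (382 to 448), and *Bmp8a* had 0, 0 and 3 UMIs and then 184, 122 CPM (105 to 141). In the Piezo1 fl/fl library *Bmp3* had 0, 0 and 6 UMIs and then 143, 116 CPM (98.2 to 137), and *Bmp8a* 1, 1 and 2 UMIs and then 82, 66.8 CPM (53.1 to 82.9). Against a limit of 3 UMIs in quartile 1, *Bmp3* was at least 216-fold higher in quartile 4 of the control and at least 31.8-fold higher in that of the Piezo1 fl/fl library. Of all genes tested, 8.03% were at least 2 times higher in quartile 4 than in quartile 1 of the control, against 5.84% for the Piezo1 fl/fl library. At resolution 0.8 the same division appeared as clusters in the control. A mature osteoblast-like cluster of 293 cells had 351 CPM of *Bmp3* and 103 CPM of *Bmp8a*, and the 506 cells that kept the name SSPC-2-like had 0.991 and 0.743 CPM.

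In quartile 4 of the control, 66 of 202 cells had a *Bmp3* UMI, 61 a *Bmp8a* UMI and 44 both, so that 72.1% of the cells with *Bmp8a* also had *Bmp3*. In the Piezo1 fl/fl library the numbers were 25, 27 and 16 of 169 cells. *Bmp2* did not follow this division. It had 90.0, 78.7, 83.2 and 123 CPM in quartiles 1 to 4 of the control and 124, 70.6, 79.2 and 126 CPM in those of the Piezo1 fl/fl library, so that quartile 4 was 1.36-fold (1.09 to 1.71) and 1.01-fold (0.785 to 1.32) quartile 1. *Gdf10* was higher in quartile 4 than in quartile 1 of the control, at 51.7 and 14.04 CPM (3.69-fold, 2.27 to 6.21). In the Piezo1 fl/fl library it had 57.3, 63.2, 18.2 and 9.77 CPM in quartiles 1 to 4, so that quartile 4 was 0.170-fold (0.0823 to 0.326) quartile 1. The cells of quartile 1 differed, with 12771 and 4781 CPM of *Postn* and 237 and 1178 CPM of *Mmp13*. At resolution 0.8, 145 SSPC-2-like cells of the Piezo1 fl/fl library formed a separate cluster with 86.5 CPM of *Gdf10*. The part of such differences in these orders was not tested. Of all genes tested, 10.1% were at least 2-fold lower in quartile 4 than in quartile 1 of the Piezo1 fl/fl library, and 6.50% in the control.

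**Figure D3:**
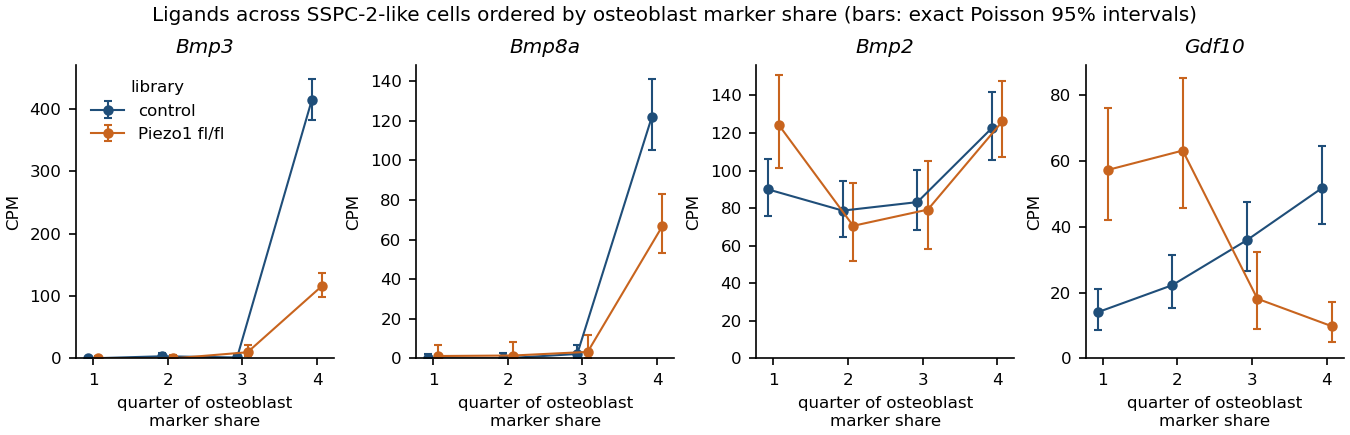
CPM of 4 ligands in SSPC-2-like cells cut into quartiles by the share of UMIs from 7 osteoblast markers (1 lowest, 4 highest, limits from the control) for the control (blue) and the Piezo1 fl/fl library (orange); bars are exact Poisson 95% intervals. *Bmp3* and *Bmp8a* are near 0 in quartiles 1 to 3 and reach 414 and 122 CPM in quartile 4 of the control, while *Bmp2* has 70.6 to 126 CPM in all quartiles.

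Between libraries, quartile 4 had less *Bmp3* in the Piezo1 fl/fl library (log2 ratio -1.83, -2.10 to -1.56) and less *Bmp8a* (-0.87, -1.26 to -0.49), and both stayed lower without the cell with most UMIs (-2.03 and -1.06). The cells of quartile 4 differed in osteoblast transcripts. *Bglap* had 5144 and 1869 CPM, *Phex* 182 and 13.8 CPM, and *Ibsp* 11281 and 15789 CPM in the control and the Piezo1 fl/fl library. The part of this difference in that of *Bmp3* was not tested. In the chondrocyte-like cells of the Piezo1 fl/fl library, *Bmp8a* had 203 CPM (151 to 267) and *Bmp3* 4.06 CPM from 1 UMI, and these cells had 22245 CPM of the osteoblast markers in sum, against 8768 CPM in SSPC-2-like cells of that library. The markers did not all go that way, since *Bglap* had 122 CPM in these chondrocyte-like cells and 878 CPM in the SSPC-2-like cells. The 19 chondrocyte-like cells of the control at resolution 0.8 had 29.3 CPM of *Bmp8a* (10.7 to 63.7), from 6 UMIs. *Bmp8b*, a paralog with which *Bmp8a* could share reads, had 0 and 1 UMIs, and *Oxct2a*, which overlaps *Bmp8a* on the same strand, 2 and 1.

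*Bmp3* also had sources outside bone-forming cells. Tendon-like cells had 72.9 CPM (59.9 to 87.8) in the control, from 111 UMIs in 43 cells, and 8.94 CPM (5.38 to 13.95) in the Piezo1 fl/fl library, from 19 UMIs in 13 cells. The *Pi16* fibroblast-like cluster had 44.7 CPM (38.8 to 51.4) and 48.3 CPM (38.2 to 60.3), and the other fibroblast clusters had 0 to 8.64 CPM. SSPC-1-like cells had 27.3 and 18.1 CPM. *Bmp3* in cells high in *Dpt* and *Cd34* as a whole was 23.3 and 7.27 CPM, while within the *Pi16* fibroblast-like cluster its log2 ratio was 0.11 (-0.29 to 0.49). That ratio may set unlike cells side by side. *Sema3e* and *Anxa8*, which led the control cluster, were leading genes of the *Slurp1*-led cluster in the Piezo1 fl/fl library, with 0.346 CPM of *Bmp3*.

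*Gdf5* (ENSMUSG00000038259, chr2:155941023-155945367, minus strand), a ligand of joints and articular cartilage, had 24 and 71 UMIs in all, and *Gdf6* (ENSMUSG00000051279, chr4:9844372-9862345, plus strand), its near relative, 2 and 7. SSPC-1-like cells had 2.33 CPM of *Gdf5* (1.16 to 4.16) in the control and 9.42 CPM (6.70 to 12.9) in the Piezo1 fl/fl library, from 11 UMIs in 10 cells and 39 UMIs in 29 cells. Tendon-like cells had 1 and 10 UMIs. The chondrocyte-like cells of the Piezo1 fl/fl library had the highest level, 40.6 CPM (19.5 to 74.6), from 10 UMIs in 5 cells, and those of the control at resolution 0.8 had 19.5 CPM from 4 UMIs. *Gdf5* was the ligand with the highest ratio of Piezo1 fl/fl over control in SSPC-1-like cells (log2 2.02, 1.03 to 3.13). *Gdf6* had at most 4 UMIs in any group, too few for an order of groups.

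**Figure D4:**
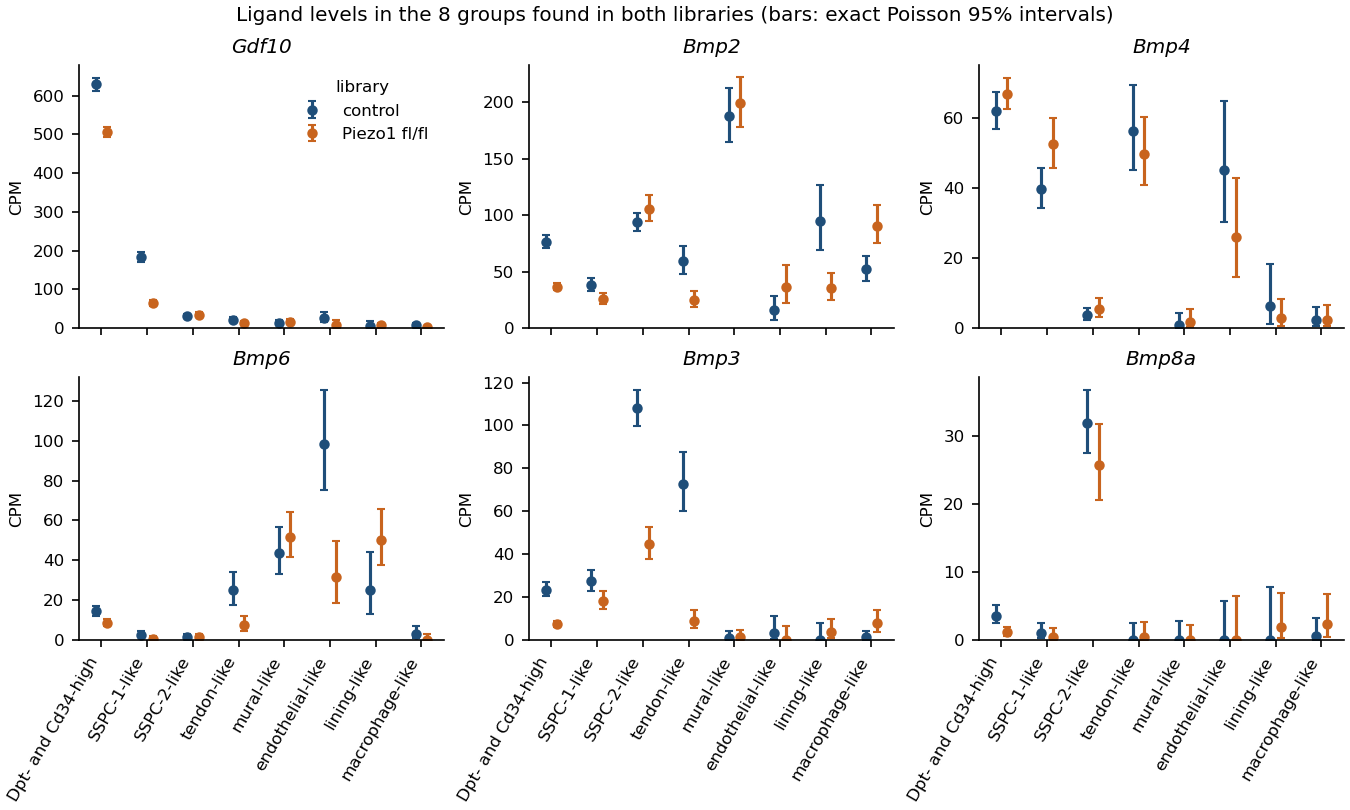
CPM of 6 ligands in the 8 groups found in both libraries, control in blue and Piezo1 fl/fl in orange; points are the summed level of a group and bars exact Poisson 95% intervals. *Bmp2* peaks in mural-like cells of both libraries, *Bmp3* is lower in SSPC-2-like and tendon-like cells of the Piezo1 fl/fl library, and *Bmp6* in endothelial-like cells is 98.3 CPM in the control and 31.4 CPM in the Piezo1 fl/fl library.

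The comparison of genotypes asks whether ligand levels differ where *Piezo1* carries floxed alleles under the same Cre. Of the 80 pairs of a ligand and a group found in both libraries, 41 had at least 10 UMIs in 1 of the libraries. In 20 of these the libraries differed at least 2-fold, 16 lower and 4 higher in the Piezo1 fl/fl library, which is 48.8% of pairs. Over all genes, 9.58% of pairs differed as much, 5.00% lower and 4.58% higher. In 7 of the 20 the larger count was under 20 UMIs. Among pairs of 10 to 200 UMIs, 12 of 32 were lower and 4 higher, against 6.20% and 5.66% of all genes.

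The lower pairs were spread over ligands and groups. *Bmp3* was lower in tendon-like (log2 ratio -3.03, -3.81 to -2.32), *Dpt*- and *Cd34*-high (-1.68, -2.05 to -1.32) and SSPC-2-like cells (-1.27, -1.54 to -1.01). The value in SSPC-2-like cells turned positive under 6 other ways of forming that group, such as the finer resolution, where the control cells rich in osteoblast transcripts were a cluster of their own and the levels were 0.991 and 57.8 CPM. *Gdf10* was lower in SSPC-1-like cells (-1.49, -1.70 to -1.30), but with each cell typed alone the value was -0.02. *Bmp6* was lower in endothelial-like (-1.65, -2.49 to -0.87) and tendon-like cells (-1.73, -2.67 to -0.85). *Bmp2* was lower in cells high in *Dpt* and *Cd34* (-1.06, -1.23 to -0.88). The 4 higher pairs were *Gdf5* in SSPC-1-like and tendon-like cells, *Bmp2* in endothelial-like cells and *Bmp3* in macrophage-like cells, the last with 10 UMIs in 3 cells. The median log2 ratio over all genes was between -0.07 and 0.09 in the 8 groups, so that the ratios needed no recentring. Group makeup differed too. Tendon-like cells had 142 and 472 CPM of *Dpt*, and SSPC-1-like cells 81.8 and 11.8 CPM of *Bglap*, in the control and the Piezo1 fl/fl library, and the part of such differences in the ratios was not tested.

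**Figure D5:**
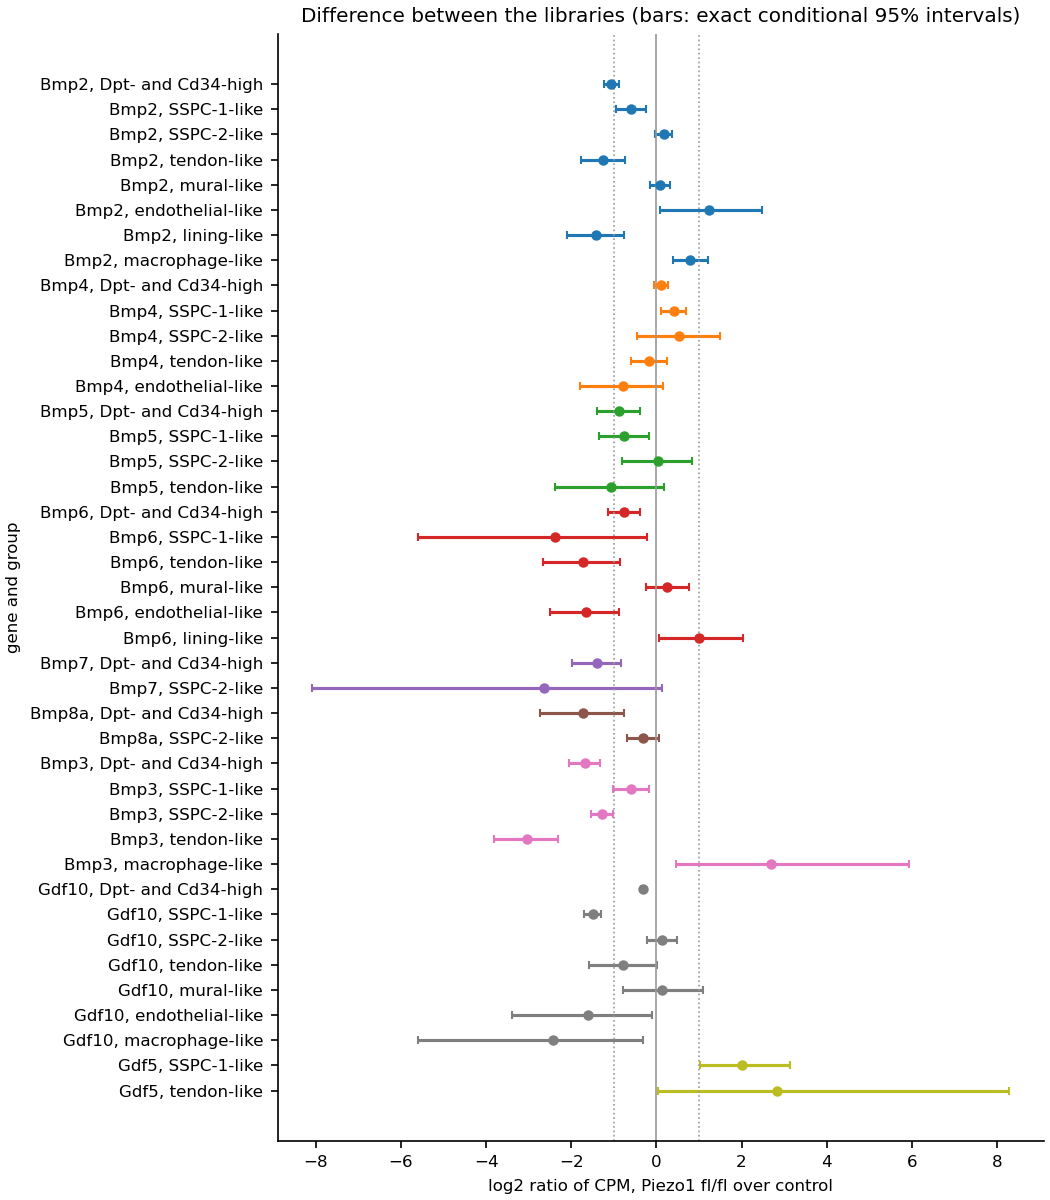
log2 ratio of CPM, Piezo1 fl/fl over control, for the 41 pairs of a ligand and a group with at least 10 UMIs in 1 library; bars are exact conditional 95% intervals, and dotted lines mark a 2-fold difference. Most points outside the dotted lines lie on the left, 16 of 20, and *Bmp4* has none outside them.

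Seen by cell group, the ligands made different mixtures. UMIs mark 3' ends and were not divided by gene length, so shares describe captured molecules. In the control, *Gdf10* held 76.1% of ligand UMIs in cells high in *Dpt* and *Cd34* and 59.1% in SSPC-1-like cells, *Bmp3* 38.7% and *Bmp2* 33.7% in SSPC-2-like cells, *Bmp2* 74.9% and *Bmp6* 17.4% in mural-like cells, and *Bmp7* 81.5% in perineurial-like cells. The Piezo1 fl/fl library gave 79.6% *Gdf10* in cells high in *Dpt* and *Cd34* and 73.2% *Bmp2* in mural-like cells, but 36.0% *Gdf10* and 29.1% *Bmp4* in SSPC-1-like cells. Most cells showed no ligand or 1. At 2500 UMIs per cell, 10.9% and 7.88% of cells high in *Dpt* and *Cd34* had UMIs of at least 2 ligands, the highest share among the 8 groups in both libraries, and in macrophage-like cells the share was 0.664% and 0.435%.

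Genes with the most similar pattern over the 8 groups were taken for the 7 ligands with at least 100 UMIs in each library, by the smaller of the libraries' Pearson correlations of log2(CPM + 1) among 10552 genes. The points share libraries and depth, and only 8 enter each value. *Bmp4* was most like *Col15a1* (r at least 0.96), *Lepr* (0.93) and *Magi3* (0.92), and *Bmp6* most like *Sparcl1* (0.94), *Crip2* (0.94) and *Cav1* (0.90). For *Bmp8a*, *Ibsp* (0.91) and *Mmp13* (0.91) were among the most similar. *Col15a1*, *Lepr*, *Ibsp* and *Mmp13* are among the markers used for naming. *Bmp3* was most like *Clec11a* (0.90), *Lum* (0.89) and *Cpox* (0.89), *Gdf10* like *Frmd5* (0.93), *Dpep1* (0.92) and *Rev3l* (0.89), and *Bmp5* like *Calhm5* (0.96), *Gpr27* (0.95) and *Med13l* (0.95). *Bmp2* had weaker matches, *Fam13a* (0.83), *Ptges3l* (0.79) and *Zcchc9* (0.79), and its own pattern correlated at 0.59 between the libraries, against 0.96 for *Bmp4* and 0.94 for *Gdf10*.

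The machinery that receives and shapes these ligands was described over 6 lists. Of the 11 receptor genes, all had at least 10 UMIs in their highest group of both libraries, and 8 were highest in the same of the 8 groups, against 64.1% of all genes. *Bmpr2*, the type II receptor, was highest in endothelial-like cells at 640 and 449 CPM. *Bmpr1a*, the main type I receptor, had 320 CPM in SSPC-1-like cells of the control and 288 CPM in mural-like cells of the Piezo1 fl/fl library. In the latter library SSPC-1-like cells, at 272 CPM, could not be told from mural-like cells (ratio 1.06, 0.949 to 1.18). *Acvr1* was highest in SSPC-1-like cells at 140 and 166 CPM, and the co-receptor *Rgmb* in lining-like cells at 141 and 185 CPM. Of 71 receptor pairs, 1 was 2-fold higher and 5 lower in the Piezo1 fl/fl library, where 4.58% of pairs over all genes were higher and 5.00% lower.

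All 6 SMAD genes passed the same minimum and 4 were highest in the same group, beside 64.1% of all genes. *Smad1*, a receptor-activated SMAD, was highest in endothelial-like cells at 231 and 242 CPM and *Smad5* there too at 183 and 167 CPM, while the common partner *Smad4* had 186 CPM in endothelial-like cells of the control and 200 CPM in SSPC-1-like cells of the Piezo1 fl/fl library. The inhibitory *Smad7* had 155 CPM in mural-like cells of the control and 179 CPM in chondrocyte-like cells of the Piezo1 fl/fl library. In the latter library mural-like cells had 174 CPM and could not be told from chondrocyte-like cells (ratio 1.02, 0.728 to 1.41). The highest group of *Smad4* could not be told from the next in either library (ratios 1.03, 0.851 to 1.25, and 1.07, 0.876 to 1.32). None of 42 SMAD pairs was 2-fold higher and 3 were lower in the Piezo1 fl/fl library, beside 4.58% and 5.00% over all genes.

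Of 13 target genes, which BMP signalling is known to raise, 12 passed the minimum and 8 were highest in the same group. The share over all genes was 64.1%. *Id3* was highest in mural-like cells at 878 and 1042 CPM, the group with the most *Bmp2* of the 8, but in the control SSPC-1-like cells could not be told from them (ratio 1.01, 0.942 to 1.08). *Id2* had 650 CPM in SSPC-1-like cells of the control and 1386 CPM in *Hba-a1*-led cells of the Piezo1 fl/fl library. The osteogenic factors *Dlx5* and *Runx2* had 361 and 337 CPM in SSPC-2-like cells of the control and 280 and 357 CPM in those of the Piezo1 fl/fl library, and *Dlx5* had 416 and 117 CPM in SSPC-1-like cells. Of 84 target pairs, 15 were 2-fold lower and 1 higher in the Piezo1 fl/fl library, beside 5.00% and 4.58% of pairs over all genes.

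Among 17 antagonists, which bind the ligands outside the cell, 10 passed the minimum and 4 were highest in the same group. For all genes that share was 64.1%. *Fstl1* was highest in cells high in *Dpt* and *Cd34* at 5655 and 6295 CPM. *Nbl1* had 2873 CPM in perineurial-like cells, beside the *Bmp7* there, and 781 CPM in SSPC-1-like cells of the Piezo1 fl/fl library. Cells high in *Dpt* and *Cd34* of that library could not be told from the latter (767 CPM, ratio 1.02, 0.978 to 1.06). *Htra1* had 561 CPM in lining-like cells of the control and 430 CPM in SSPC-2-like cells of the Piezo1 fl/fl library, and *Twsg1* 302 CPM in perineurial-like and 321 CPM in chondrocyte-like cells of the respective libraries. For *Htra1*, lining-like and SSPC-2-like cells could not be ordered in either library (ratios 1.01, 0.886 to 1.14, and 1.03, 0.925 to 1.15). Of 69 antagonist pairs, 5 were 2-fold higher and 7 lower in the Piezo1 fl/fl library, beside 4.58% and 5.00% over all genes. Of 6 processing proteases, 5 passed and 3 were highest in the same group, against 64.1% of all genes. Among these 3 was the convertase *Pcsk6*, in lining-like cells at 2226 and 1478 CPM. *Pcsk5* had 128 CPM in SSPC-1-like cells of the control and 203 CPM in chondrocyte-like cells, *Bmp1*, which is a protease and not a ligand, 304 CPM in SSPC-2-like cells and 337 CPM in cells high in *Dpt* and *Cd34*, and *Furin* 118 CPM in macrophage-like and 130 CPM in *Hba-a1*-led cells. For *Bmp1* (ratios 1.04 and 1.03) and *Furin* (1.09 and 1.19) the next group lay within counting error in both libraries. Of 37 protease pairs, 2 were 2-fold higher and 3 lower, beside 4.58% and 5.00% over all genes.

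Of the 14 other ligands of the family, 6 passed the minimum, and all 6 were highest in the same of the 8 groups. Over all genes this held for 64.1%. *Inhba*, an activin subunit, had 530 CPM in lining-like cells of the control and 1960 CPM in chondrocyte-like cells of the Piezo1 fl/fl library, where its next group was lining-like cells at 311 CPM. *Gdf15*, a stress-induced ligand, had 274 CPM in macrophage-like cells of the control and 457 CPM in those of the Piezo1 fl/fl library, whose *Hba-a1*-led cells had 1209 CPM. *Gdf11* was highest in mural-like cells at 85.9 and 47.0 CPM, and *Inhbb* in perineurial-like cells of the control at 58.2 CPM and in SSPC-1-like cells of the Piezo1 fl/fl library at 26.8 CPM. In the control, SSPC-1-like cells had 51.0 CPM of *Inhbb* and could not be told from perineurial-like cells (ratio 1.14, 0.541 to 2.14). Of 33 such pairs, 5 were 2-fold higher and 5 lower, beside 4.58% and 5.00% over all genes.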

How the data were processed

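Each library was a BD Rhapsody whole-transcriptome library of sorted Prrx1-Ai9+ periosteal cells. The authors deposited, for each, a table of raw UMI counts (genes by cell barcodes), whole numbers that were not normalized. The submitters' processing notes name fastp, UMI-tools, STAR and Seurat 4.0.3, and the genome build, annotation and strand setting are not given in the sources used here. Of 31253 feature identifiers, 31107 were found in GENCODE vM21 (GRCm38), from which positions were taken, and promoters came from RefSeq.

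Here each library was treated alone. The filter kept cells with 1000 to 5000 detected genes whose mitochondrial share was under 25% (4455 and 5141), and Scrublet in scanpy marked 46 (0.829%) and 67 (0.988%) barcodes as doublets, which were removed. Blood cells were kept. Genes in fewer than 10 cells were dropped for clustering, and Seurat 5.3.0 was run with LogNormalize, 2000 vst features without the ligands and pathway genes, 30 principal components, 20 of them in the neighbour graph, and resolution 0.4. A cluster took the class whose markers had the highest mean log2 ratio to the pooled rest (at least 2, or 1 for the fibroblast lists) with at least 3 markers detected, unless another class had more markers among its 10 leading genes. Clusters with over 1000 CPM of both *Dpt* and *Cd34* formed 1 group. These limits were set after the clusters were seen.

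For each group the raw counts were added up and scaled to CPM by its total. Levels have exact Poisson, shares Clopper-Pearson and ratios exact conditional intervals at 95%, for counting error only, and a count of 0 was read against 3 counts. The interval code was tested on simulated data. With 1 library per genotype no test was run. For shares at equal depth, each cell was thinned to 2500 UMIs, which left out 482 control and 580 Piezo1 fl/fl cells. The members and lists were chosen with earlier results of these data known. All 10 ligands are named, up to 4 genes with most UMIs of each of 6 pathway lists, and 3 genes most like each ligand, where hemoglobin, *Xist*, Y-linked, mitochondrial and ribosomal genes were left out and 1 gene is not reported here. Of the alternatives, 10 were listed with those earlier results known, and the osteoblast quartiles and the removal of shared barcodes were added after seeing the data.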

Additional observations from a re-analysis of the deposited data

Results flagged for a closer look

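A pair of groups was singled out where 1 ligand was higher in the Piezo1 fl/fl library in 1 group and lower in another, with both counting intervals away from no difference. None of these differences between groups was tested, since each genotype has 1 library.

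*Bmp2* had a log2 ratio of Piezo1 fl/fl over control of 1.23 in endothelial-like cells, from 10 and 21 UMIs, and -1.43 in lining-like cells, from 45 and 37 UMIs. The mural marker *Rgs5* was also higher in endothelial-like cells (1274 and 3292 CPM) and lower in lining-like cells (1227 and 226 CPM) of the Piezo1 fl/fl library, and its part was not tested. *Bmp3* had 2.70 in macrophage-like cells and -3.03 in tendon-like cells. The macrophage-like value rests on 2 and 10 UMIs, of which 7 came from 1 cell, and typing each cell alone gave 0.08. *Bmp6* had 1.00 in lining-like cells, from 12 and 53 UMIs, and -2.39 in SSPC-1-like cells, from 12 and 2 UMIs.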

How the results depend on the processing

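The number of ligands highest in the same group of both libraries, 7 of 8, was 5 to 7 under the other settings except at resolution 0.8 (3 of 6) and with cells of 500 to 6000 genes (4 of 8). In both exceptions a small chondrocyte-like cluster of the control ranked first for *Bmp2*, *Gdf5* and *Gdf10* (142 and 140 *Gdf10* UMIs, 129 of the 142 from 1 cell). *Bmp2* was highest in chondrocyte-like cells of both libraries there, and *Gdf5* had only 4 UMIs in the control cluster. *Gdf10* was highest in cells high in *Dpt* and *Cd34* of the Piezo1 fl/fl library. Other ligands also had different highest groups, such as *Bmp3* at resolution 0.8 and *Bmp8a* with 500 to 6000 genes. The number at least 2 times higher in their highest group of the control, 5 of 9, was 4 or 5 except with 500 to 6000 genes (3) and with each cell typed alone (3). The number of 2-fold pairs, 20 of 41, was 15 to 23 elsewhere and 31 of 75 with each cell typed alone, which makes more groups. Without the barcodes found in both libraries it was 19 of 41, and all 42 single values stayed within their intervals.

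*Bmp3* in SSPC-2-like cells turned from lower to higher in the Piezo1 fl/fl library. Its log2 ratio, -1.27, became 5.87 at resolution 0.8, 3.95 with a mitochondrial limit of 10%, 0.75 with doublets kept, 0.51 with 30 components in the graph, 1.63 with each cell typed alone and 0.82 in osteoblast quartiles 1 to 3. The control level in that group was then 0.991, 2.78, 30.9, 32.0, 1.37 and 1.61 CPM in turn, instead of 108 CPM. At resolution 0.8 and in the quartiles the control cells with most osteoblast transcripts were no longer in the group. Under the mitochondrial limit, doublets kept, 30 components and single-cell typing, the control also had a separate mature osteoblast-like group. It held 562, 462, 456 and 617 *Bmp3* UMIs in turn. With each cell typed alone the Piezo1 fl/fl library had such a group too, with 147 UMIs. The part of these groups in the ratios was not tested. *Gdf10* in endothelial-like cells, from 17 and 5 UMIs, turned from -1.61 to 0.28 with doublets kept and 1.26 with each cell typed alone, and the cause was not tested. *Gdf10* in SSPC-1-like cells went from -1.49 to -0.02 with each cell typed alone, when 168 control and 246 Piezo1 fl/fl cells typed as marrow stroma held 1068 and 1327 of its UMIs. No paired analysis was possible because each genotype has 1 library. Depth limits *Gdf5*, *Gdf6* and *Bmp7*, and no replicate bounds the spread between mice.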
